A study of Mus musculus with 12 samples.

Results

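The late neutrophil granule genes were followed across sorted mouse bone marrow progenitors: Camp, Ltf, Ngp, Lcn2, S100a8, S100a9, Chil3, Cd177, Lrg1 and Mmp8. These 10 genes were chosen by name, through the RefSeq accession of their array probes, from 20238 genes that had a named probe with a value on every array. All 10 were among the 13680 genes that were tested, since the brightest probe of each was well above background on at least 2 arrays. Cd177 was well above background on 3 arrays only, Mmp8 on 9, Lrg1 on 10, and Ltf and Ngp on 11 each.

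The series holds 12 one-colour arrays, 6 of LSK cells (lineage-negative, Sca-1+, c-Kit+ cells, which contain the stem cells and multipotent progenitors) and 6 of granulocyte-macrophage progenitors (GMPs). All cells were on the C57BL/6 strain and came from the bone marrow of recipient mice repopulated with fetal liver cells. In each cell type there was 1 array of wild-type cells, 1 of Tet2KD/KD cells (a knockdown of Tet2, an enzyme that oxidises methylated cytosine), 1 of Ezh2-/- cells (lacking the histone methyltransferase of Polycomb repressive complex 2) and 1 of Tet2KD/KDEzh2-/- cells, called double mutant here. A further array per cell type held Tet2KD/KDEzh2-/- cells taken in MDS/MPN (a myelodysplastic and myeloproliferative disease), and another held them taken in RAEB (refractory anaemia with excess blasts). The number and age of the mice behind each array, the promoter behind any deletion and the host cells that remained are not given in the sources used here. No group was repeated, so the value of a single array has no replicate error, and the standard errors (SE) below measure the spread between arrays of different genotypes rather than between mice.

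Neutrophil granules are filled in the order in which their proteins are made. Primary granule proteases such as Elane and Mpo are made at the promyelocyte stage, close to the GMP, whereas the secondary (specific) and tertiary (gelatinase) granule proteins are made at the myelocyte and metamyelocyte stages, under transcription factors that include C/EBP-epsilon. Late granule genes are therefore known as markers of neutrophil precursors beyond the GMP, and LSK cells are not known as a site of their expression.

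Every value is the log2 of the processed signal minus the log2 of the array's own 75th percentile, so 0 stands for that percentile and 1 unit is a 2-fold difference. The percentile ran from 168.5 to 389.4 units of signal, 45.6 to 52.3% of gene spots per array were well above background, and replicate probes on an array had a median coefficient of variation of 4.36 to 5.27%. Tet2 signal was lower on the knockdown array than on its matched array in each of the 4 pairs without disease: -1.61 against 0.44 and -0.79 against 0.12 in LSK cells, and -0.64 against 1.57 and -1.01 against 1.51 in GMPs. On the 4 diseased arrays it lay between -3.09 and -1.22. The Ezh2 probe read 2.50 to 3.40 on the 12 arrays and does not check the deletion, since its place relative to the deleted part is not known. The LSK and stem cell list, with markers such as Mecom, Procr and Hlf, was well above background for 12 of 12 genes on every LSK array, and for 5 to 8 of 12 on the GMP arrays. The GMP list was above background for 10 of 10 genes on every array and passed the test for higher signal in GMPs with 9 of 10. Slide 1 carried every array without disease, slide 2 the diseased LSK pair and slide 3 the diseased GMP pair, so slide and disease cannot be told apart.

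The stretches of DNA before the start sites of 6 members are shown as examples. The members not printed, Lcn2, Cd177, Lrg1 and Mmp8, also differed among the diseased arrays described further on. Each is the 150 bases before the RefSeq start in the GRCm38.p6 assembly, read 5′ to 3′ in the gene's direction; all 10 members matched the RefSeq promoter table. Capitals mark the letters TTNNGNAA on either strand, a loose form of the site bound by C/EBP factors.
Camp, chr9:109849457-109849606, - strand: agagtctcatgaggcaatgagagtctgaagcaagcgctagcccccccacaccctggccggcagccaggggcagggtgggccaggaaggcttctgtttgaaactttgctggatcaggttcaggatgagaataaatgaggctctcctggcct
Ltf, chr9:111019142-111019291, + strand: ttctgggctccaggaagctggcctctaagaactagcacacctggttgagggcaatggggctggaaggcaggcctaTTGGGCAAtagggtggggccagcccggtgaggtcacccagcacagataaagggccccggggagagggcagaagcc
Ngp, chr9:110419658-110419807, + strand: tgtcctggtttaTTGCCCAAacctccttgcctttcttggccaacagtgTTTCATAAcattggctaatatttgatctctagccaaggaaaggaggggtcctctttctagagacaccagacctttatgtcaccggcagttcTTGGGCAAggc
S100a8, chr3:90668921-90669070, + strand: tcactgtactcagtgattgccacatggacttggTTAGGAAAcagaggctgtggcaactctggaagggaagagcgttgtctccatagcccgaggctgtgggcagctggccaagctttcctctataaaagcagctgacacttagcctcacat
S100a9, chr3:90695722-90695871, - strand: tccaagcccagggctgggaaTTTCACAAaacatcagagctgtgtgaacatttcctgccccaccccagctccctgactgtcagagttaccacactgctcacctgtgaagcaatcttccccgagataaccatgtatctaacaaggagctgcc
Chil3, chr3:106167565-106167714, - strand: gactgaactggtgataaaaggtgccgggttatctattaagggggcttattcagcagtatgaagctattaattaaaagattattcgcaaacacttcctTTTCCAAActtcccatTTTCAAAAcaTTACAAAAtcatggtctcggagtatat
Camp, Ngp and Ltf lie on the same stretch of chromosome 9, and S100a8 and S100a9 lie close together on chromosome 3. The letters TTNNGNAA were found in 7 of the 10 members' windows, in Ltf, Ngp, S100a8, S100a9, Chil3, Cd177 and Mmp8, and in 22.7% of all 32851 promoter windows of this length. Ngp and Chil3 held 3 such matches each. Camp, Lcn2 and Lrg1 held none, and of these only Camp is printed. The letters GAGGAA on either strand, a core of the PU.1 site, were in 2 members (Lcn2 and S100a8) and in 14.5% of all windows. A TATA box spelled TATAAA on either strand was in 2 members (S100a8 and Cd177) and in 7.57% of all windows. These are matches of letters and were not measured as bound sites.

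Camp, Ltf and Ngp, which encode secondary granule proteins, were highest in the LSK cells of MDS/MPN. Camp encodes the cathelicidin precursor, an antimicrobial peptide. Its LSK values were 3.13 in wild-type, 1.04 in Tet2KD/KD, 1.06 in Ezh2-/-, -0.61 in double mutant, 4.88 in MDS/MPN and -0.96 in RAEB cells. Its GMP values in the same order were 0.83, 1.35, 0.66, -1.63, 2.64 and 1.21. The MDS/MPN array was the highest of its cell type in both, and the double mutant array without disease was the lowest in GMPs. A second Camp probe ran in parallel, from -1.96 in RAEB to 3.63 in MDS/MPN among the LSK arrays and from -2.70 in double mutant to 1.42 in MDS/MPN among the GMP arrays. The other 9 members had 1 named probe each.

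Ltf encodes lactoferrin, the iron-binding protein of secondary granules. Its LSK values were 0.32 in wild-type, -2.72 in Tet2KD/KD, -2.31 in Ezh2-/-, -2.28 in double mutant, 1.99 in MDS/MPN and -2.51 in RAEB cells. The GMP values were -2.46, -2.77, -3.07, -4.62, -1.72 and -2.56 in that order, and the lowest of them, that of the double mutant, was not well above background. The LSK arrays of wild-type and MDS/MPN were thus above all 10 others. Ngp, which encodes the secondary granule protein neutrophilic granule protein, read -0.38, -3.33, -3.06, -3.13, 1.96 and -3.66 on the LSK arrays and -2.80, -2.10, -3.08, -4.71, -1.09 and 0.24 on the GMP arrays. It differed from Camp and Ltf in the diseased GMPs, where the RAEB array and not the MDS/MPN array was the higher.

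Lcn2 encodes lipocalin 2, a secondary granule protein that binds bacterial siderophores. It read 0.67 in wild-type LSK cells, -1.52 in Tet2KD/KD, -1.09 in Ezh2-/-, -1.21 in double mutant, 3.33 in MDS/MPN and -0.57 in RAEB. In GMPs it read 3.17, 1.70, 2.23, 3.14, 5.31 and 5.97. Both diseased GMP arrays lay above the 4 others, and every GMP array lay above the LSK array of its condition.

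S100a8 and S100a9 encode the subunits of calprotectin, an abundant pair of calcium-binding proteins of the neutrophil cytosol. S100a8 read 4.47, 2.38, 2.21, 1.31, 6.66 and 1.97 on the LSK arrays of wild-type, Tet2KD/KD, Ezh2-/-, double mutant, MDS/MPN and RAEB, and 4.36, 3.30, 3.62, 5.11, 6.40 and 8.50 on the GMP arrays. S100a9 read 5.80, 3.65, 3.55, 2.72, 7.60 and 3.29 in LSK cells and 3.71, 3.90, 3.21, 2.72, 5.55 and 8.08 in GMPs. The partners ran together in LSK cells (Pearson r = 1.00 over 6 arrays) and less closely in GMPs (r = 0.88 over 6 arrays), where the double mutant array without disease was the highest of the 4 for S100a8 and the lowest for S100a9.

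Chil3 encodes the chitinase-like protein Ym1, made by neutrophil precursors and by alternatively activated macrophages. It read 1.06, -0.79, -0.50, -1.07, 4.64 and -1.51 on the LSK arrays and 0.66, 0.37, 0.13, 1.36, 4.87 and 9.56 on the GMP arrays. Its GMP values spanned the widest range of the 10 members, and the RAEB array was 4.69 above the MDS/MPN array. Lrg1 encodes leucine-rich alpha-2-glycoprotein 1, a secreted granule protein. It read -1.85, -3.93, -3.70, -5.03, 1.22 and -2.10 in LSK cells, of which the Tet2KD/KD and double mutant values were not well above background, and 1.12, -1.31, 0.25, 1.76, 3.17 and 4.28 in GMPs. Both genes were highest on the MDS/MPN array in LSK cells and on the RAEB array in GMPs.

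Mmp8, the neutrophil collagenase, read -3.37, -6.08, -6.27, -4.98, -1.39 and -3.17 on the LSK arrays and -1.22, -0.94, -1.23, -0.58, 0.55 and 0.86 on the GMP arrays. Its LSK values in Tet2KD/KD, Ezh2-/- and double mutant cells were not well above background. Cd177, a surface and granule membrane glycoprotein of neutrophils, was well above background on 3 arrays: LSK MDS/MPN at -2.72, GMP MDS/MPN at -2.52 and GMP RAEB at -3.38. Its values on the other arrays lay between -6.58 and -5.08 and give only an upper bound. It entered the tested genes through diseased arrays alone, where it was high. Its results are therefore given apart, as lower bounds without a p, and it is left out of the counts of members that passed.

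**Figure D1:**
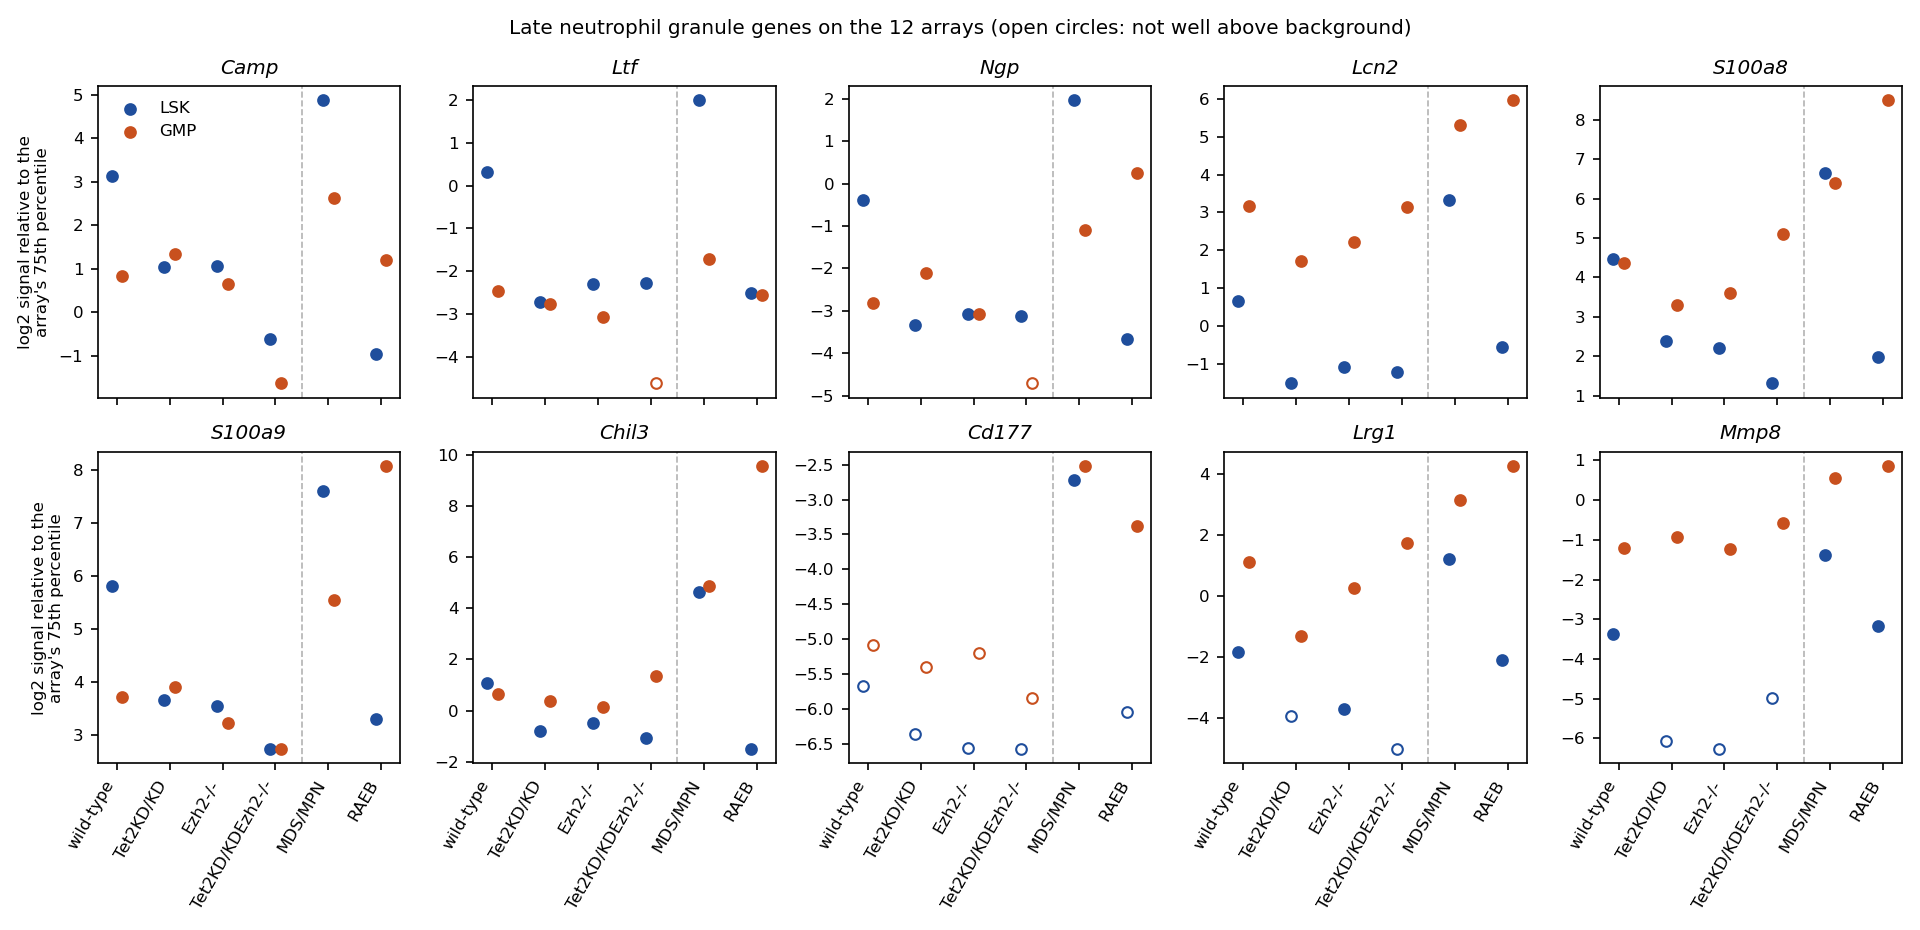
Log2 signal relative to the array's 75th percentile (vertical axis, a separate scale in each panel) for the 10 genes on each of the 12 arrays, by condition (horizontal axis), with LSK arrays in blue and GMP arrays in orange; each point is 1 array, and the dashed line sets off the diseased arrays. The MDS/MPN array is the highest LSK array in all 10 panels, and the RAEB array is the highest GMP array in 7 of 10.

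Over the LSK arrays the 10 genes shared their highest array, and most shared the next. The MDS/MPN array was the highest LSK array for all 9 members other than Cd177, a place it took for 16.4% of all genes tested. Cd177 was well above background on no other LSK array and is left out of this comparison. Among the 9 members other than Cd177 the wild-type array came next for 8, the exception being Mmp8, for which RAEB came next at -3.17 against -3.37. Below these, the Tet2KD/KD, Ezh2-/-, double mutant and RAEB arrays followed no shared order, and for Ltf they lay between -2.72 and -2.28. Pearson correlations between pairs of members over the 6 LSK arrays ran from 0.55 (Camp with Mmp8) to 1.00 (S100a8 with S100a9). For 8 of the 9 members other than Cd177 the 2 highest arrays were MDS/MPN and wild-type. The distance of these from the other 4 enters each correlation between such members. Pairs with Cd177 rest on 1 array well above background. Correlations without the high arrays were not computed.

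In LSK cells of MDS/MPN the 9 late granule genes other than Cd177 stood 3.67 to 4.96 above the mean of the 4 LSK arrays without disease, with a median of 4.07 against 0.07 over all genes tested. Of the 9, 2 rose by the test. Chil3 was higher by 4.96 (SE 0.74, adjusted p = 0.0159) and Lcn2 by 4.12 (SE 0.83, adjusted p = 0.0403), both from limma with Benjamini-Hochberg adjustment over 13680 genes, 1 array against 4. Among all genes 1.39% were called higher in this comparison. Cd177 was at least 3.05-fold higher. The other 7 did not pass, with adjusted p from 0.0672 for Mmp8 to 0.167 for Camp.
The 4 arrays of this baseline were not alike, because the wild-type array was itself high. Without it, 7 of the 9 members rose on the MDS/MPN array, against 1.13% of all genes: Chil3 (5.43), Ngp (5.14), S100a8 (4.69), Lcn2 (4.61), Ltf (4.43), S100a9 (4.29) and Mmp8, at least 8.10-fold above 3 arrays that were not well above background. Camp was then higher by 4.38 (adjusted p = 0.0979) and Lrg1 by 5.45 (adjusted p = 0.0504). In these single-array comparisons the lone array is assumed to vary like the others.

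The late granule genes were not the only granulocytic genes to rise on that array. Of the 12 primary granule genes 6 rose, among them Elane, neutrophil elastase (5.51 on this array against 1.69 to 2.50 on the 4 LSK arrays without disease), Ms4a3, a marker of GMPs and their progeny (5.22 against 0.39 to 1.92), and the proteases Prtn3 and Ctsg. Of 22 tested genes of the gelatinase granule and mature neutrophil list 7 rose, of which 5 were well above background on none of the 4 LSK arrays without disease. Hp (haptoglobin) was 4.24 higher, Fcnb (ficolin B) at least 12.3-fold higher, and the stefins Stfa1 and Stfa2 at least 4.09-fold and 4.07-fold higher. Stfa1 and Stfa2 were each well above background on 3 arrays, and their highest values were on diseased arrays. Stfa1, like Cd177, entered the tested genes through diseased arrays alone, so the count of 7 is a description. Cebpe, the regulator of secondary granule genes, rose by 3.04 (SE 0.47, adjusted p = 0.0176) together with Cebpa and Irf8, the other 11 of 14 transcription factors not passing. Of the 10 GMP genes 8 rose. The GMP list shares Elane, Mpo, Prtn3, Ms4a3 and Ctsg with the primary granule list, and Cebpe and Gfi1 with the transcription factors. The counts of these lists therefore overlap. Whether more maturing cells in the gate or more RNA per cell gave these signals cannot be told apart in bulk RNA.

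Markers of other cells moved on the same array. Of 16 eosinophil, basophil and mast cell genes 3 rose, and the list's summed signal was 76.4 against 6.3 to 15.1 on the 4 arrays without disease, in multiples of the 75th percentile. Of 14 monocyte and macrophage genes 6 rose and 1 fell, with a summed signal of 115.1 against 40.7 to 53.3. Of the 27 genes of the mature neutrophil list that had a probe, 25 were well above background on this array, against 15 to 17 on the 4 arrays without disease. Mmp9 (-4.59) and Fpr2 (-2.03) were detected on this array and on no other. Of 11 immediate-early genes 4 fell, including Nr4a1, which was 5.45 lower, and the other 7 were lower without passing. The part of these markers in the late granule signal was not tested.

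In LSK cells of RAEB none of the members passed, in either direction, where 2.47% of all genes did (121 higher and 217 lower by limma). No member had an unadjusted p under 0.05. Relative to the 4 LSK arrays without disease the differences ran from -2.12 (Camp, SE 1.36, adjusted p = 0.378) to 2.01 (Mmp8, SE 0.92, adjusted p = 0.229), with 3 of 9 above 0 and a median of -0.64; Cd177 was not well above background on any of these arrays. Against the MDS/MPN array on the same slide all 9 other than Cd177 were at least 2-fold lower, from -1.78 for Mmp8 to -6.15 for Chil3, a property of 2.55% of all genes. Cd177 was at least 3.66-fold lower and is left out of this comparison. These are differences between 2 single arrays and have no test.

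Primary granule genes did not follow the late ones on the RAEB array. Elane read 3.74, Ms4a3 3.52, Mpo 9.26 and Ctsg 8.09 there, each above the 4 LSK arrays without disease and below the MDS/MPN array. Ctsg passed (2.36 higher, SE 0.44, adjusted p = 0.0384), and the other 11 of the 12 did not. Of the mature neutrophil list 1 of 22 rose, Hp, at 4.27 against 0.40 to 2.04. Cebpe read 0.32, within the range of -0.98 to 0.49 on the arrays without disease. Of 7 tested B cell genes 4 rose on this array, and the summed signal of that list was 38.3 against 14.4 to 15.6; their part in the other signals was not tested.

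Pooled as diseased against not diseased in LSK cells, 1 member rose, Mmp8, by 2.90 (SE 0.73, adjusted p = 0.0339, 2 arrays against 4), against 4.66% of all genes. Mmp8 was well above background on only 1 of the 4 arrays without disease, so the size of its rise rests on dim values. With normexp correction the Mmp8 difference was 0.71 and did not pass. The 9 differences other than that of Cd177 were above 0, with a median of 1.72. These means join 2 unlike arrays: with the MDS/MPN array left out, Camp, Ltf, Ngp, S100a8, S100a9 and Chil3 were lower in disease, by 0.62 to 2.12, and no member passed. The Mmp8 call was also lost without the Tet2KD/KD, Ezh2-/- or double mutant LSK array or the wild-type GMP array. Without the RAEB LSK array it was lost as well, at a difference of 3.79, while Lcn2 (4.12) passed.

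The LSK wild-type array stood apart from the 3 mutant LSK arrays without disease in these genes. Of the 10 members 9 were at least 2-fold above each of the 3, by 1.56 (Chil3) to 2.68 (Ngp) over the highest of them, while 63 of 13680 genes, 0.461%, did so. The level of this array was known from earlier results, so the count is a description. Among these 9, Mmp8 was not well above background on the other 3 arrays. Its fold over them is at least 1.59, so a 2-fold difference is not shown for it. Cd177 was not well above background on any of the 4. With normexp background correction 7 of 10 members were counted, and 15 of all genes (0.110%). The MDS/MPN array remained higher than the wild-type array for all 10, by 1.67 (Ltf) to 3.58 (Chil3). There is 1 wild-type LSK array, so this difference has no replicate.

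The wild-type LSK array was not raised in primary granule genes: 0 of 12 were 2-fold above the other 3 arrays, and their median difference from the mean of the 3 was -0.08, against 2.50 for the 8 members measured on both sides. Elane read 2.50 there against 1.69 to 2.43, and Mpo 7.86 against 7.83 to 8.54. In the mature neutrophil list 4 of 22 genes were 2-fold above each of the 3, Itgb2l, Cxcr2, Retnlg and Mrgpra2b, named here after their values were seen, and Cd14 was 2-fold below. The list counts here, unlike the share of 0.461% above, did not require signal well above background on the wild-type array. Itgb2l was well above background on 3 of the 12 arrays. Its wild-type value of -4.08 lay below those of LSK MDS/MPN (-1.79), GMP RAEB (-2.44) and GMP MDS/MPN (-2.89). Retnlg, the resistin-like protein of neutrophils, read 0.10 against -5.49 to -2.03. Of the immediate-early genes 4 of 11 were 2-fold below each of the 3 arrays and 0 above. The eosinophil, basophil and mast cell list had 2 of 16 genes 2-fold above, Fcer1a and Prss34. Their part was not tested.

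**Figure D2:**
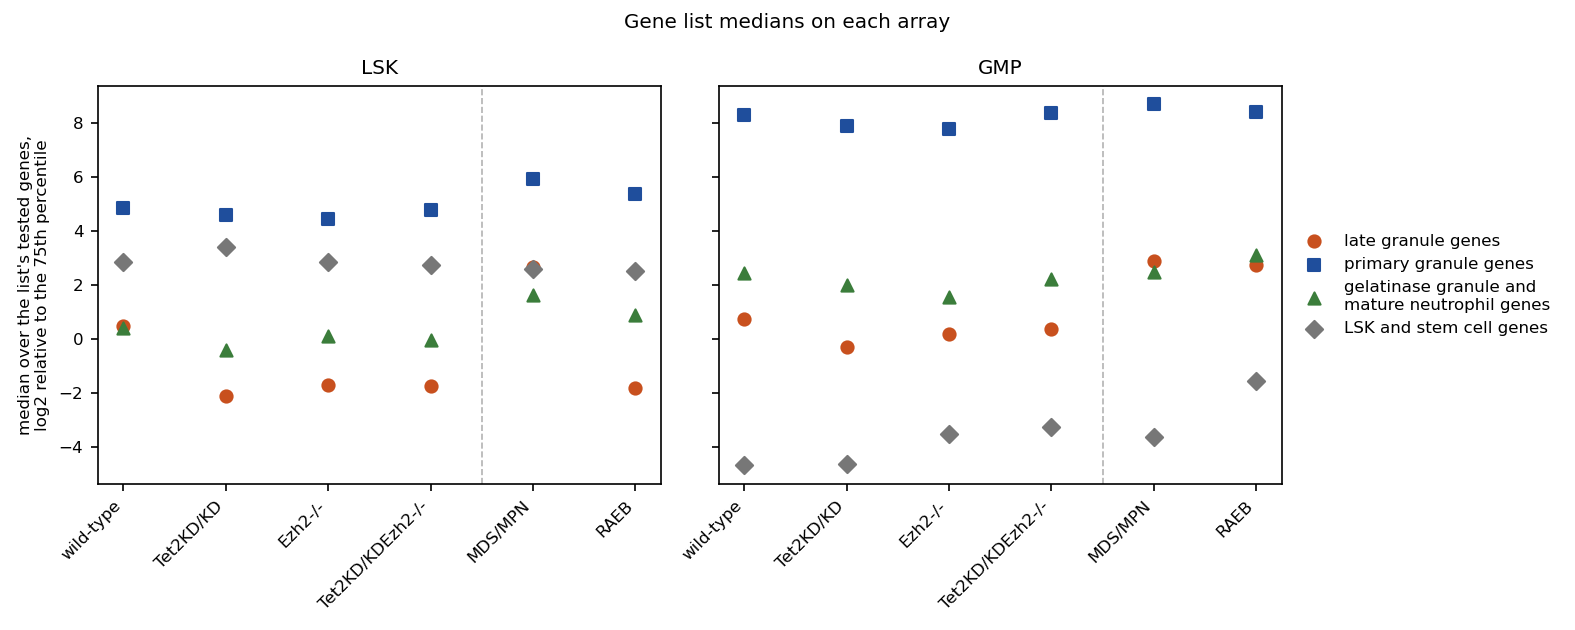
Median over the tested genes of 4 lists (vertical axis, log2 signal relative to the 75th percentile) on each LSK array (left) and GMP array (right), by condition; each symbol is the median of 1 list on 1 array, and levels are to be compared within a list. In LSK cells the late granule median is 0.49 in wild-type, -2.12 to -1.70 in the 3 mutants without disease, 2.66 in MDS/MPN and -1.81 in RAEB, while the primary granule median stays between 4.45 and 5.92.

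In GMPs of diseased mice the late granule genes were higher on both arrays. Of the 9 members other than Cd177, all but Camp and Ltf had both arrays above all 4 GMP arrays without disease, where 28.9% of all genes did so. Cd177 did so too, but it entered the tested genes through diseased arrays alone and is left out of this comparison. The exceptions were Camp, for which RAEB (1.21) was below Tet2KD/KD (1.35), and Ltf, for which RAEB (-2.56) was below wild-type (-2.46). Averaged over both diseases, 2 of the 9 other than Cd177 rose, against 13.4% of all genes: Chil3 by 6.58 (SE 1.55, adjusted p = 0.0149) and Lcn2 by 3.08 (SE 0.94, adjusted p = 0.0401). Cd177 was at least 2.25-fold higher. The 9 differences ran from 1.09 (Ltf) to 6.58, with a median of 3.08 against 0.15 over all genes. S100a9 (3.43, adjusted p = 0.0552), Lrg1 (3.27, adjusted p = 0.0546) and S100a8 (3.36, adjusted p = 0.0695) did not pass. With the spread taken from the 6 GMP arrays alone, 5 of 9 passed, against 6.79% of all genes. With the RAEB array left out, 0 passed, against 9.74%.

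On the GMP RAEB array 4 of 9 rose, against 9.88% of all genes: Chil3 by 8.92 (SE 0.74, adjusted p = 0.000501), S100a9 by 4.69 (SE 0.96, adjusted p = 0.0121), S100a8 by 4.41 (SE 1.05, adjusted p = 0.0212) and Lcn2 by 3.40 (SE 0.83, adjusted p = 0.0222). Cd177 was at least 1.67-fold higher. Ngp was 3.41 higher (adjusted p = 0.0744) and Lrg1 3.82 higher (adjusted p = 0.0612). Camp and Ltf were higher by 0.91 (SE 1.36) and 0.67 (SE 1.14), less than their SE. On the GMP MDS/MPN array 1 of 9 rose, Chil3, by 4.23 (SE 0.74, adjusted p = 0.0313), against 4.61% of all genes. Cd177 was at least 3.03-fold higher. There Camp was 2.33 higher (SE 1.36) and Ltf 1.51 higher (SE 1.14), without passing.

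Set directly against each other, the diseased GMP arrays split the genes. On the RAEB array 5 members were at least 2-fold above the MDS/MPN array, against 5.57% of all genes: Chil3 (4.69), S100a9 (2.53), S100a8 (2.10), Ngp (1.33) and Lrg1 (1.11). Camp was lower there by 1.42, Cd177 by 0.86 and Ltf by 0.84. Lcn2 and Mmp8 differed by 0.65 and 0.31. These are single arrays with no test.

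**Figure D3:**
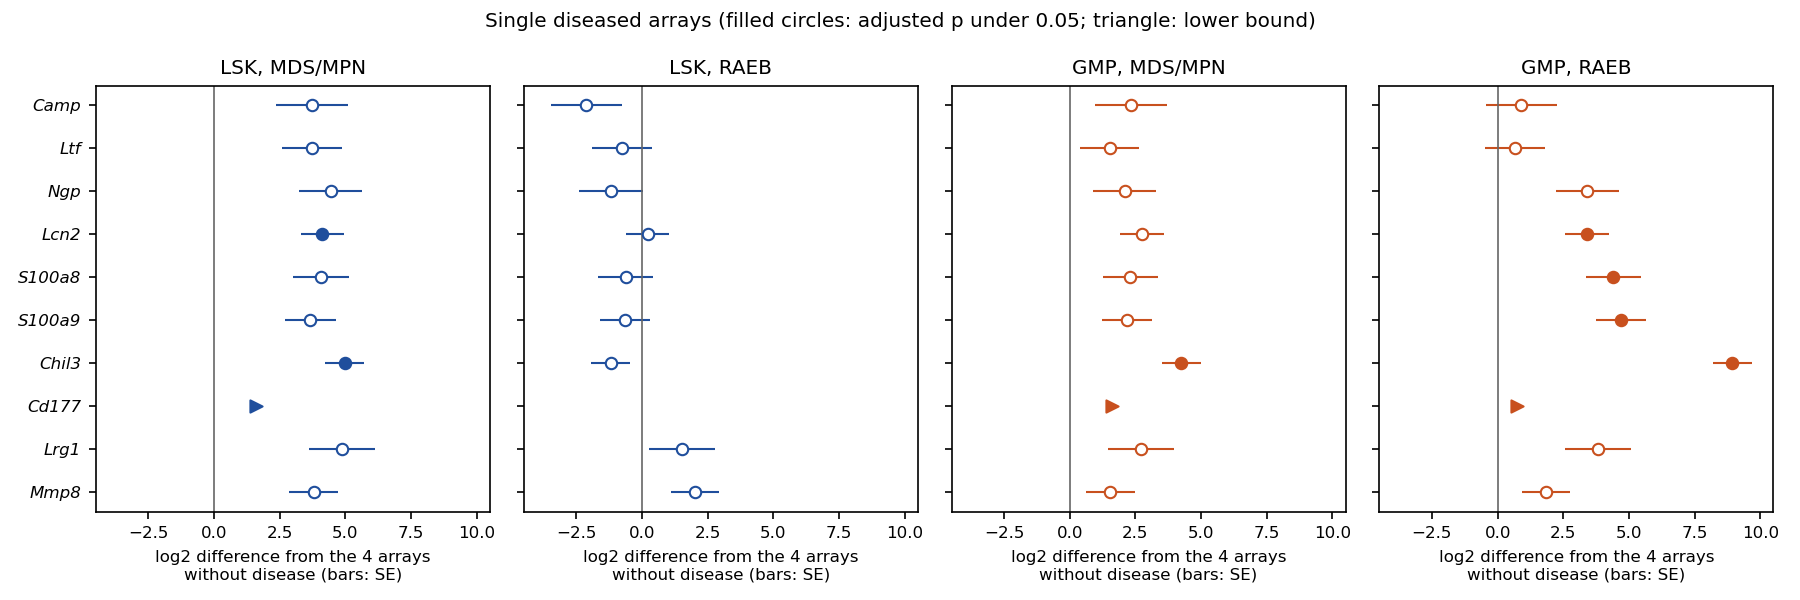
Log2 difference of each diseased array from the 4 arrays of its cell type without disease (horizontal axis) for the 10 genes (vertical axis), with SE as bars and filled circles where the adjusted p was under 0.05; Cd177, not well above background on any array without disease, is drawn as a lower bound (triangle) and left out in LSK RAEB. All points lie above 0 in LSK MDS/MPN, GMP MDS/MPN and GMP RAEB, and 3 of 9 in LSK RAEB.

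The same GMP arrays differed in other neutrophil genes. On the RAEB array 8 of 22 tested genes of the gelatinase granule and mature neutrophil list rose: Il1r2, a decoy receptor for interleukin 1, was 6.37 higher, Adam8 5.43 and Trem1, an activating receptor of neutrophils and monocytes, 2.82, and Stfa1 was at least 16.4-fold higher. On the MDS/MPN array 4 of 22 rose, among them Adam8 (2.73) and Stfa1 (at least 4.47-fold). On each array 2 of these genes were well above background on none of the 4 GMP arrays without disease. Stfa1 entered the tested genes through diseased arrays alone, so the counts that include it are descriptions. None of the 12 primary granule genes rose on either array, and Serpinb1a, an inhibitor of neutrophil proteases, fell by 0.71 on the RAEB array. Elane read 9.40 and 8.96 on the MDS/MPN and RAEB arrays against 8.55 to 9.07 on the 4 others. Of 14 transcription factors 6 rose on the RAEB array and 1, Myb, fell; Cebpe was not among them, at 6.66 and 6.47 on the diseased arrays against 5.61 to 6.31.

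Other lineages moved on the diseased GMP arrays as well. Of 9 megakaryocyte and platelet genes 7 rose on the RAEB array and 3 on the MDS/MPN array, with summed signals of 35.0 and 15.2 against 2.3 to 3.9 on the 4 arrays without disease. Of 16 eosinophil, basophil and mast cell genes 8 rose on the MDS/MPN array, with a summed signal of 2347 against 108.5 to 177.0. On the RAEB array 1 rose and 4 fell, while the summed signal was 490.0. Among monocyte and macrophage genes 4 of 14 rose and 1 fell on the RAEB array. Of 11 immediate-early genes 4 rose on the RAEB array and 0 on the MDS/MPN array. All 11 were above the mean of the 4 arrays without disease on both. The part of these genes and cells in the late granule signal was not tested.

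The difference between the disease effects in LSK cells and in GMPs was tested as an interaction. None of the members passed in either direction by limma, and none had an unadjusted p under 0.05, where 5.99% of all genes passed with a difference above 0 (LSK minus GMP) and 6.97% with one below 0. The largest was that of Chil3, -4.69 (SE 2.19, adjusted p = 0.181), and 7 of the 9 other than Cd177 were below 0.

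Averaged over the 6 conditions, GMPs had more signal than LSK cells for some members only. Of the 9 other than Cd177, 3 rose in GMPs, against 25.8% of all genes, and 1 fell, against 18.9%. Lrg1 was 4.11 higher in GMPs (SE 0.67, adjusted p = 0.00201), Mmp8 3.78 (SE 0.47, adjusted p = 0.000533) and Lcn2 3.65 (SE 0.54, adjusted p = 0.00125), each over 6 arrays against 6 with condition as a block. Among the 6 LSK arrays Lrg1 was well above background on 4 and Mmp8 on 3, so the sizes for these genes rest partly on dim values. With normexp correction Lrg1 was 2.57 and Mmp8 1.62 higher, and both still passed. Ltf was 1.62 lower in GMPs (SE 0.51, adjusted p = 0.0353). S100a8 was 2.05 higher (SE 0.87, adjusted p = 0.0895), Chil3 2.52 higher (SE 1.41, adjusted p = 0.177), and Camp, Ngp and S100a9 differed by -0.58 (SE 0.56), -0.32 (SE 0.85) and 0.09 (SE 0.83); S100a9 was below 0 with quantile normalization, at -0.29. Cd177 was well above background on 2 of the 6 GMP arrays and 1 of the 6 LSK arrays, so no size is given for it.

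Lcn2, Lrg1 and Mmp8 were higher in GMPs than in LSK cells in each of the 6 conditions. Ltf was lower in each, but only just in Tet2KD/KD (-0.056) and RAEB cells (-0.046). Camp, Ngp, S100a9, S100a8 and Chil3 were higher in some conditions and lower in others. In wild-type cells the GMP array was below the LSK array for 6 of the 9 members with signal, with Ltf at -2.78, Ngp at -2.42, Camp at -2.30 and S100a9 at -2.09, and in MDS/MPN for 5 of 10. In RAEB it was above for 9 of 10, with a median of 4.41 and Chil3 at 11.07. The share of all genes above or below within a single condition was not computed, so these counts are descriptions. The wild-type and MDS/MPN LSK arrays are those described above as high in these genes. Of the 12 primary granule genes, 11 rose in GMPs and 0 fell, with Ms4a3 5.99 and Elane 5.94 higher. Of 22 tested mature neutrophil genes 10 rose, including Hp (5.68) and Cd14 (5.34).

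**Figure D4:**
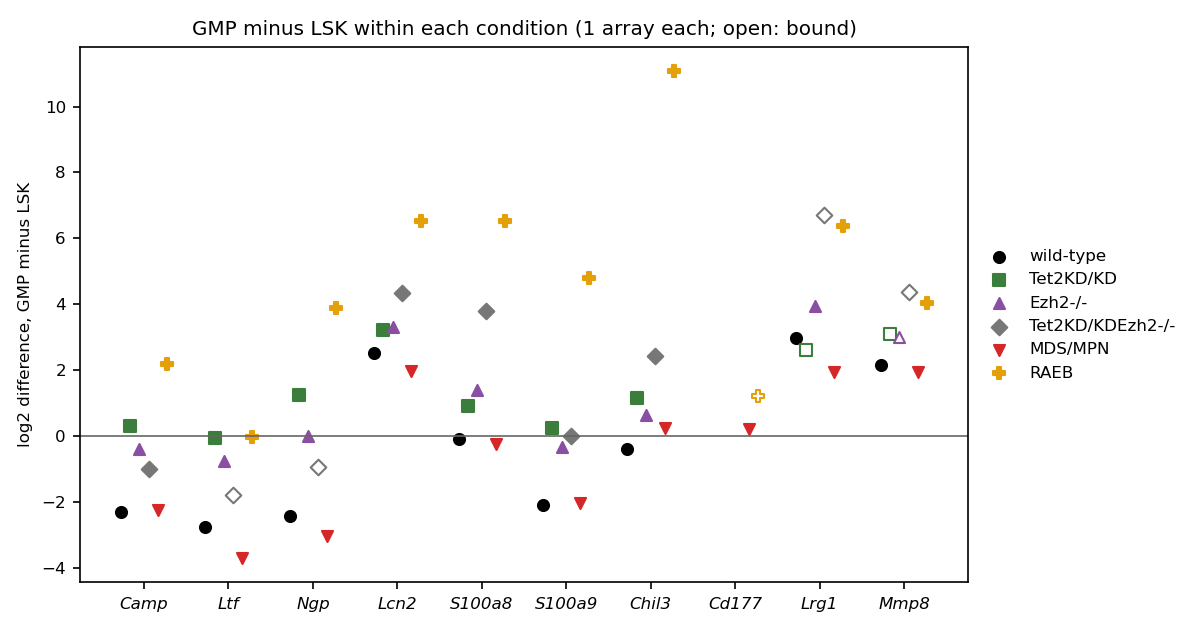
Log2 difference of the GMP array from the LSK array (vertical axis) within each of the 6 conditions (symbols) for the 10 genes (horizontal axis); each symbol is 1 array minus 1 array, open where 1 side was not well above background and the value is a bound, and left out where neither side was. Lcn2, Lrg1 and Mmp8 lie above 0 in all 6 conditions and Ltf below 0 in all 6, though close to 0 in Tet2KD/KD and RAEB. Chil3 reaches 11.07 in RAEB.

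Among the 8 arrays without disease, no member passed for Ezh2 loss, for which 0.190% of all genes passed, or for the Tet2 knockdown, for which 0.00% did (limma, 4 arrays against 4; 1201 and 786 genes had an unadjusted p under 0.05). The 9 members other than Cd177, which was not well above background on any of these arrays, had lower means with either mutation. Of these 9, 4 had an unadjusted p under 0.05 for Ezh2 loss and 2 for the Tet2 knockdown. Camp showed the largest differences, -1.72 for Ezh2 loss (SE 0.45, adjusted p = 0.296) and -1.38 for the Tet2 knockdown (SE 0.45, adjusted p = 0.817). With the wild-type LSK array left out, 4 of 9 were below 0 for Ezh2 loss and 7 of 9 for the Tet2 knockdown.

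In GMPs without disease the members differed in direction in the double mutant. Against the wild-type GMP array, the double mutant array was lower in Camp by 2.46 and in S100a9 by 0.99, and, with signal not well above background, at least 3.03-fold lower in Ltf and at least 2.39-fold lower in Ngp. It was higher in S100a8 by 0.74, Chil3 by 0.70, Lrg1 by 0.64 and Mmp8 by 0.63. Lcn2 differed by -0.03, and Cd177 was not well above background on either array. These are single arrays with no test. Among the 12 arrays Camp, Ltf and Ngp correlated at 0.84 to 0.88 with one another, and Lcn2, Lrg1 and Mmp8 at 0.93 to 0.98. Ltf with Lrg1 and with Mmp8 gave 0.01 and -0.04. These correlations are descriptions over arrays that share the cell type and disease differences.

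The genes outside the 10 whose values over the 12 arrays were most like the mean of the members were Cstdc5 (r = 0.92 over 12 arrays, 0.95 within the 6 LSK arrays and 0.98 within the 6 GMP arrays), Stfa1 (0.90, 0.89 and 0.94), Itgb2l (0.87, 0.98 and 0.93), Wfdc21 (0.87, 0.99 and 0.87), Dmrtb1 (0.86, 0.90 and 0.76), Tesc (0.85, 0.80 and 0.89), Zfyve26 (0.85, 0.76 and 0.95) and Orm2 (0.84, 0.89 and 0.99). Cstdc5 and Stfa1 belong to the stefin family of cysteine protease inhibitors, Itgb2l encodes an integrin beta chain and Orm2 an acute-phase glycoprotein. Itgb2l and Stfa1 were each well above background on 3 arrays. The 3 highest values of each were on the LSK MDS/MPN array and the diseased GMP arrays, so their r over the 12 arrays rests largely on those. The values of Zfyve26 ran only from -0.63 to 0.46. Outside the LSK MDS/MPN array and the diseased GMP arrays, Cstdc5 read -6.73 to -5.48 and Orm2 -6.55 to -5.91. These values lie below the lowest signal well above background on any array, -4.94. Both genes thus entered the tested genes through diseased arrays, and their r rests on those arrays.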

How the data were processed

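Total RNA was labelled with Cy3 and hybridised to one-colour Agilent arrays, per the labels' protocols. Per the file headers, the scanner software of the deposited files was Feature Extraction 10.7.1.1; processed, median and background signals are linear intensities. The deposited flags for control type, outliers and background have the unit other. The value table of the authors repeated the processed intensity at each of 62976 spots and gave identical results. From the files, the log2 processed signal minus the log2 of each array's 75th percentile was computed, without control and outlier spots, and spots of 1 probe were averaged. Of 55681 gene probes, 26762 matched 1 symbol through a RefSeq gene table of GRCm38.p6, used for names and promoter sequence only, since the headers name another build. For each gene the brightest probe was used, and it was tested where well above background on at least 2 arrays.

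Tests were two-sided, by lmFit and eBayes of limma 3.58.1 (R 4.3.3), with Benjamini-Hochberg adjustment over 13680 genes and a threshold of 0.05, checked on simulated data. GMP and LSK were compared over 12 arrays with condition as a block, and disease in fits of 4 or 6 means over the 12 arrays, with slide and disease inseparable; Ezh2 loss and Tet2 knockdown used the 8 non-diseased arrays, adjusting for the other mutation and for LSK or GMP. Where all arrays of a group were below background, the fold is a lower bound: the bright group's mean against, per array, the higher of the lowest signal well above background and the probe's own. The number of arrays limits the precision. Alternatives were quantile normalization, normexp correction (offset 50), median scaling, the mean of all probes, other filters, a trended robust fit, smaller sets of arrays and each array left out. All 10 members are named; other genes are named from 14 lists, up to 4 by smallest p in a comparison or as markers of a cell type, and the 8 most like the members' mean. The members and lists were chosen with earlier results of these data known.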

Additional observations from a re-analysis of the deposited data

How the results depend on the processing

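Each result was recomputed under the listed alternatives. Over the 7 comparisons of cell type and disease, 1282 recomputed member values kept their direction and their side of the threshold, 52 lost the call, 52 gained one and 17 changed sign. S100a9 in GMP against LSK was -0.29 with quantile normalization and -0.54 over the 8 arrays without disease, and Cd177 in LSK RAEB, not well above background on these arrays, was -0.48 with normexp. GMP and LSK were paired by condition in the reported fit. For the other comparisons, no paired analysis was possible because the labels give no replicate numbers. The counts of members here are over all 10 and include Cd177.

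With normexp correction the members that passed were 3 in GMP against LSK (5 in the main setting), 9 in LSK MDS/MPN (3), 5 in GMP MDS/MPN (2), 8 in GMP RAEB (5), 5 in diseased GMPs (3) and 0 in diseased LSK cells (1). All genes passing were then 1546 in LSK MDS/MPN (409 in the main setting), 2607 in LSK RAEB (338), 4031 in diseased LSK cells (1315), 4036 in the interaction (1773) and 75 for Ezh2 loss (26), and 15 genes were 2-fold above in wild-type LSK cells (63). Without a filter on dim probes 8 members passed in LSK MDS/MPN, and all genes passing were 3972 there, 5441 in diseased LSK cells, 5994 in diseased GMPs (3130 in the main setting), 6258 in the interaction and 12 for Ezh2 loss. With the filter at 6 arrays 1 member passed in GMP MDS/MPN. Quantile normalization gave 488 genes in GMP MDS/MPN (1272 in the main setting), 194 in LSK RAEB and 17 for Ezh2 loss. It turned the split in GMP against LSK from 3525 higher and 2580 lower to 2676 higher and 3099 lower, where it moved the median of all genes from 0.16 to 0.01, and in GMP MDS/MPN from 630 and 642 to 151 and 337. The trended robust fit gave 2556 genes in GMP MDS/MPN and 78 for Ezh2 loss, and 5 members in diseased GMPs. Against the double mutant array alone 0 members passed in either cell type, and 37 genes in LSK cells and 8 in GMPs. With the spread from the arrays of the cell type alone, 6 members and 1776 genes passed in diseased GMPs and 0 members in diseased LSK cells.

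With each array left out in turn, the members passing ran from 3 to 5 in GMP against LSK, 2 to 8 in LSK MDS/MPN (8 without the wild-type LSK array), 1 to 4 in GMP MDS/MPN, 5 to 8 in GMP RAEB, 0 to 2 in diseased LSK cells, 0 to 6 in diseased GMPs and 0 to 1 in the interaction. All genes passing ran from 223 to 409 in LSK MDS/MPN, 86 to 357 in LSK RAEB, 69 to 2628 in GMP MDS/MPN, 185 to 2357 in diseased LSK cells, 2042 to 3556 in diseased GMPs, 390 to 3751 in the interaction, 0 to 10 for Ezh2 loss and 0 to 1 for the Tet2 knockdown. In GMP against LSK, Ngp ran from -1.17 to 0.22 and S100a9 from -0.85 to 0.53. In LSK RAEB, Lcn2 ran from -0.028 to 0.70 and S100a8 from -1.05 to 0.0057. In diseased LSK cells Camp ran from -2.12 to 3.72, Ltf from -0.76 to 3.74, Ngp from -1.18 to 4.44, S100a8 from -0.62 to 4.07, S100a9 from -0.64 to 3.67 and Chil3 from -1.19 to 4.96; the lowest value is that without the MDS/MPN array. The causes of these shifts were not tested, apart from the fewer arrays or the other set of genes that an alternative itself brings. Signal over background limits Cd177 throughout and Mmp8, Lrg1, Ltf and Ngp on their dim arrays.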
